A study of Bos indicus with 12 samples.

Results

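The thrombospondin genes THBS1, THBS2, THBS3 and THBS4 and the receptor genes CD36 and CD47 were examined in the CL of cows on day 18. These 6 genes were chosen by name among 15178 genes measured, the receptors being the best known ones of THBS1. Of the 6 members, 5 passed the filter on low values (at least 30 in at least 1 cow) and THBS4 did not. The samples were CL of 12 non-lactating, multiparous Bos indicus cows of a synchronized herd, and 1 poly-A RNA library was made per cow. The 6 pregnant (P) cows had been inseminated on day 0 and were judged pregnant by an elongated embryo in the uterine flush, ISG expression and progesterone. The 6 non-pregnant (NP) cows are labelled only as such, and the study's methods describe the cyclic group as synchronized and not inseminated. Where NP cows came from that group, insemination and pregnancy cannot be told apart. Ages are not given in the sources used here. The cows are named by their numbers in the labels.

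Thrombospondins are large matricellular glycoproteins that cells secrete into the extracellular matrix, where they bind growth factors, proteases and cell surface receptors. THBS1 and THBS2 carry type I repeats, by which they bind CD36 and inhibit the growth of blood vessels, and THBS1 also activates latent TGFB1. THBS3 and THBS4 lack these repeats. CD36 is a scavenger and fatty acid receptor of microvascular endothelium, macrophages and platelets. CD47 is a widely expressed membrane protein that binds THBS1, limits nitric oxide signalling and, through SIRPA on macrophages, acts as a signal against phagocytosis. In the bovine CL, THBS1 is known as an antiangiogenic factor of luteal regression.

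The values are normalized counts, that is, reads counted per gene divided by a size factor of the library. The reads behind them came to 6148184 to 8253360 per NP library and 2038858 to 7534503 per P library. The 3 shallowest libraries were those of P cows 01, 18 and 28, so the calls are also given without them. Genes of the steroidogenic luteal cell were abundant in every cow, with a summed level of 149200 to 284900 in NP and 184100 to 274300 in P cows over 5 genes. A gene was called differentially expressed (DEG) when limma gave a Benjamini-Hochberg adjusted p below 0.05 over the 11907 genes tested and the log2 fold change was 0.58 or more in either direction. Of all tested genes 26.8% were DEGs, 12% higher and 14.8% lower in P cows, and in 13.6% the groups did not overlap. Without P cows 01, 18 and 28, 11.8% were DEGs.

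THBS2 and CD47 were lower in the CL of P cows than in that of NP cows, whereas THBS1, THBS3 and CD36 did not pass the test. Thus 2 of the 5 tested members were called, both in the same direction. In none of the 5 were the groups fully apart, so that 0 of 5 stood beside the 13.6% of all genes. With so few members, the share that was called is not a result about the family. edgeR with TMM normalization on the recovered reads called the same 2 members, and 26.9% of all genes.

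The THBS2 transcript was the target of a qPCR assay of the study, run on RNA of these same CL samples and in cultured cells. The results of that assay are not used here. Its primer pair is shown because it identifies the transcript of the only member that the study measured by a second method. Both are written 5′ to 3′ as in the study's primer list.
THBS2 forward: gcttcgtccgctttgactac
THBS2 reverse: taggtgaggtccagggtgt
The forward primer has 20 bases and the reverse primer 19. THBS2 was picked for that assay with the differences between these cows known, so its selection is not independent of the values below.

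**Figure D1:**
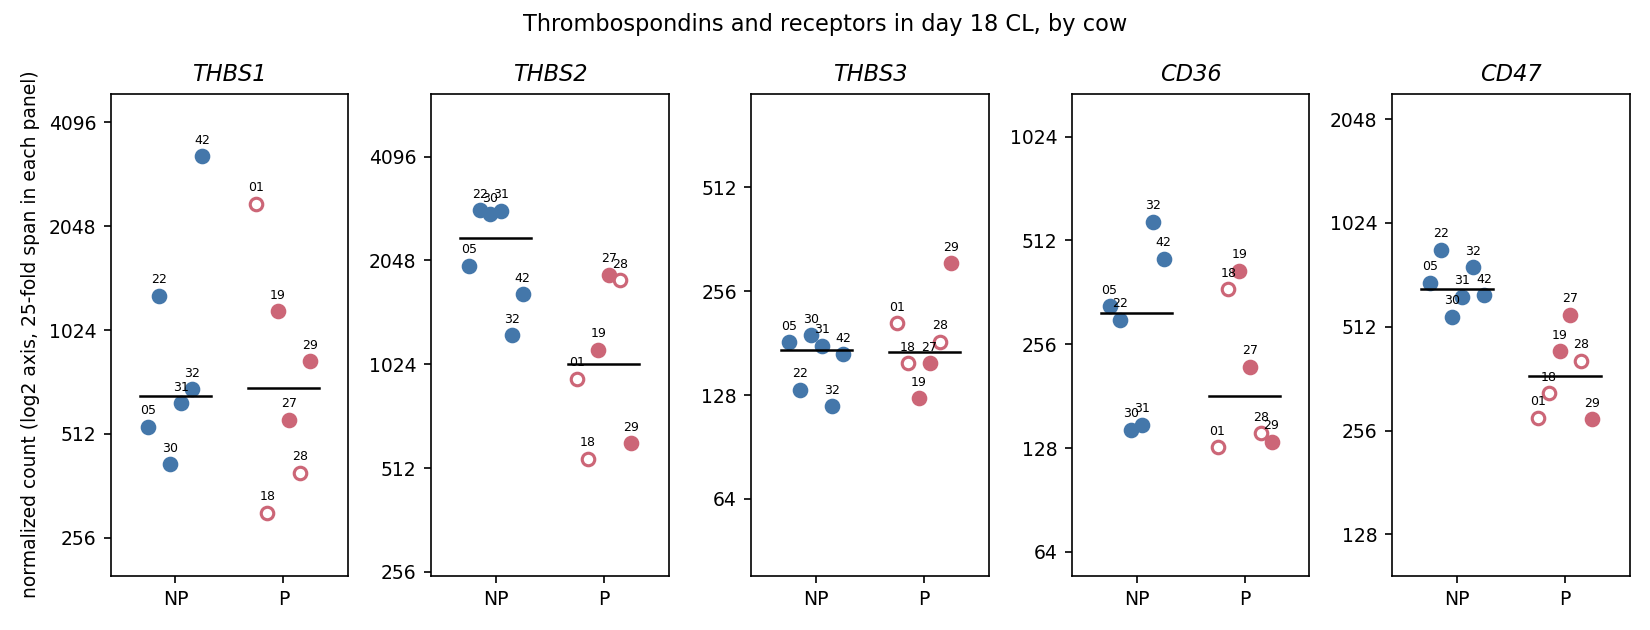
Normalized counts of the 5 tested members in each cow (log2 axis, the same 25-fold span in every panel). Each point is 1 cow with its number, open points are P cows 01, 18 and 28, and bars are group medians. All 6 P cows lay below the NP median for THBS2 and CD47, and THBS1 was spread over more than 7-fold in both groups.

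THBS1, the member best known as an inhibitor of blood vessel growth, varied more among cows of 1 group than it did between the groups. In NP cows THBS1 (ENSBTAG00000002006) ranged from 417.57 to 3264.93 normalized counts, with a median of 658.29. In P cows it ranged from 302.27 to 2379.65, with a median of 697.48. NP cow 42 and P cow 01 were the highest, P cows 18 and 28 were the lowest of all 12, and the groups overlapped over most of their range. The means were 1137 ± 1085 in NP and 938.5 ± 771.8 in P cows (SD, n = 6 each). The log2 fold change was -0.23 (SE 0.51, 95% interval -1.32 to 0.86, limma adjusted p = 0.743, two-sided exact permutation p = 0.708). The interval holds both a fall and a rise past the fold minimum, so that neither was detectable with this spread. The direction itself rested on single cows, with 0.15 without NP cow 42 and 0.02 without P cow 18. The within-group SD of THBS1 (1.09 on the log2 scale) was larger than that of 96.1% of the tested genes.

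THBS2, which like THBS1 binds CD36 and is known in mice for its part in collagen assembly, was lower in P cows. In NP cows THBS2 (ENSBTAG00000018810) ranged from 1242.38 to 2858.86 normalized counts, with a median of 2380.5. In P cows it ranged from 544.92 to 1861.16, with a median of 1028.2. NP cows 22, 30 and 31 lay close together at the top, P cows 18 and 29 were lowest, and P cows 27 and 28 overlapped the lower NP cows. In all, 4 of 6 P cows were below every NP cow. The means were 2224 ± 705.3 in NP and 1143 ± 571.5 in P cows (SD, n = 6 each), and the log2 fold change was -1.05 (SE 0.31, 95% interval -1.71 to -0.39, limma adjusted p = 0.018, two-sided exact permutation p = 0.0195). THBS2 was called whichever single cow was left out. Without P cows 01, 18 and 28 its log2 fold change kept its size at -0.97, but the adjusted p was 0.079 and the call was lost. In this smaller comparison 3 P cows stood against 6 NP cows.

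THBS3, a member without type I repeats, was nearly level between the groups. In NP cows THBS3 (ENSBTAG00000000057) ranged from 118.96 to 190.91 normalized counts, with a median of 173.14. In P cows it ranged from 125.17 to 308.89, with a median of 170.66. P cow 29 was the highest and P cow 01 the second highest, and the other 4 P cows lay within the range of the NP cows. The means were 161.8 ± 29.15 and 190.1 ± 64.31 (SD, n = 6 each), and the log2 fold change was 0.19 (SE 0.20, 95% interval -0.23 to 0.62, limma adjusted p = 0.467, exact permutation p = 0.413). The interval reaches past the fold minimum on the side of a rise and not on the side of a fall.

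THBS4, known from muscle, tendon and nerve, was close to undetected. In NP cows THBS4 (ENSBTAG00000012866) had 0 to 6 reads per library, 15 in all with 1 cow at 0. In P cows it had 0 to 3 reads per library, 6 in all with 3 cows at 0. These reads correspond to 1.745 ± 1.22 and 1.492 ± 2.163 normalized counts (SD, n = 6 each), below the filter, so that no difference could be detected at this depth. COMP, the fifth thrombospondin, known from cartilage, was as low, with means of 1.812 in NP and 1.468 in P cows.

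CD36, the receptor through which thrombospondins act on microvascular endothelial cells, was spread widely in both groups. In NP cows CD36 (ENSBTAG00000017866) ranged from 144.51 to 579.72 normalized counts, with a median of 315.46. In P cows it ranged from 128.67 to 417.98, with a median of 180.91. NP cows 30 and 31 lay with the low P cows, and P cows 18 and 19 lay with the high NP cows. The means were 326.3 ± 170.4 and 235.3 ± 128.4 (SD, n = 6 each), and the log2 fold change was -0.46 (SE 0.38, 95% interval -1.27 to 0.35, limma adjusted p = 0.356, exact permutation p = 0.333). A fall as large as that of THBS2 lies within this interval. Its within-group SD exceeded that of 90.4% of the tested genes.

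CD47, the receptor linked to nitric oxide signalling and to the signal against phagocytosis, separated the groups most clearly among the members. In NP cows CD47 (ENSBTAG00000003585) ranged from 547.63 to 856.14 normalized counts, with a median of 659.67. In P cows it ranged from 275.94 to 555.08, with a median of 368.4. P cows 29 and 01 were the lowest, and 5 of 6 P cows lay below every NP cow. The exception, P cow 27 with 555.08, was just above the lowest NP cow, cow 30 with 547.63. The means were 685.1 ± 110 in NP and 380.2 ± 107.9 in P cows (SD, n = 6 each), and the log2 fold change was -0.88 (SE 0.17, 95% interval -1.25 to -0.51, limma adjusted p = 0.00256, two-sided exact permutation p = 0.00433). Without P cows 01, 18 and 28 CD47 was still called, with a log2 fold change of -0.74 and an adjusted p of 0.0379. Its within-group SD was larger than that of 41.9% of the tested genes.

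**Figure D2:**
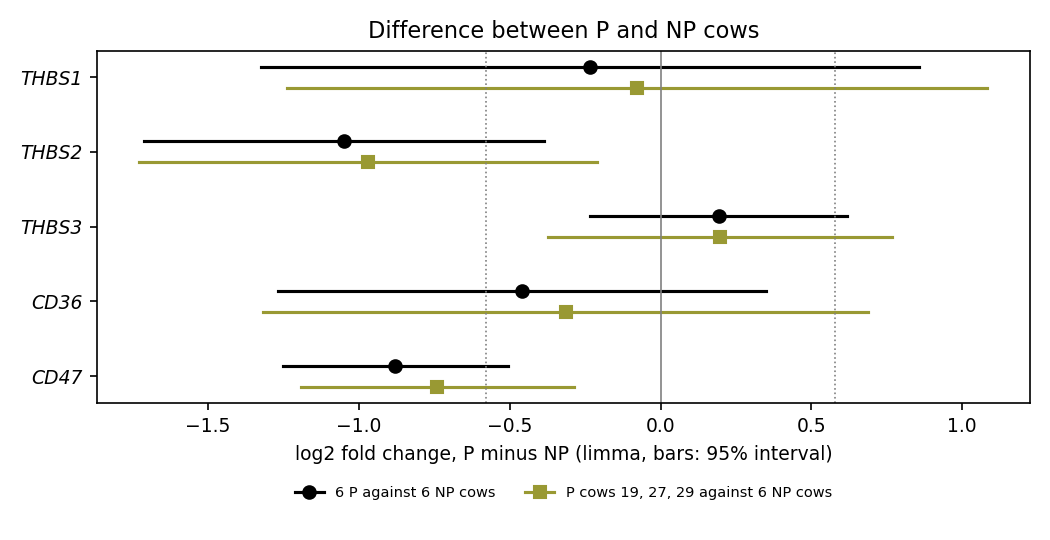
Log2 fold changes (P minus NP) of the 5 tested members with 95% intervals from limma, for all 12 cows (circles) and with P cows 19, 27 and 29 only against the 6 NP cows (squares). Dotted lines mark the fold minimum of 0.58. The estimates for THBS2 (-1.05 and -0.97) and CD47 (-0.88 and -0.74) moved little, and every interval widened.

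In bulk tissue, fewer cells of a type and less RNA per cell cannot be told apart. The marker counts stand beside 14.8% lower and 12% higher over all tested genes. Of 9 endothelial genes 2 fell in P cows, PECAM1 and CDH5, and 0 rose (median log2 fold change -0.44). KDR (0.14), CLDN5 (0.12) and TIE1 (-0.04) had log2 fold changes near 0 and did not pass. VWF (-0.55), EMCN (-0.51), TEK (-0.44) and ESAM (-0.38) did not pass either. The summed level of the 9 genes was 6105 to 10250 in NP and 3792 to 9466 in P cows. Of 6 tested macrophage genes 1 fell, with sums of 300.8 to 1026 and 478.9 to 779.7. Of 7 listed platelet genes only ITGA2B and TUBB1 were measured, and their sum was higher in every P cow (184 to 319.2) than in any NP cow (82.9 to 125.6). That sum was mostly ITGA2B (means of 92.94 in NP and 239.9 in P cows). TUBB1 was below the filter, and its groups overlapped (5.83 to 12.57 in NP and 10.46 to 24.43 in P cows). The pericyte and smooth muscle genes had sums of 5039 to 13060 in NP and 5581 to 14790 in P cows, with 3 of 8 higher and 2 lower. The fibroblast genes had sums of 32750 to 80350 and 30540 to 72050, with 1 of 7 higher and 1 lower. The adipocyte markers were near 0 beside these, with a sum of 17.49 to 38.1 and 12.86 to 56.01. Without P cows 01, 18 and 28 the endothelial calls were still 2 lower, the pericyte and smooth muscle calls were 0 and the macrophage calls 0, and of the fibroblast calls the 1 lower was left. The part of any cell type in the levels of THBS2 and CD47 was not tested.

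Within a cow, the members did not keep fixed proportions, and the ratios below compare the same pair of genes between cows, never 1 gene's level with another's. The log2 ratio of THBS2 to CD47 was 0.705 to 2.347 in NP cows (median 1.631) and 0.728 to 2.137 in P cows (median 1.556). The P cows thus lay within the NP range, the 2 called members having fallen by similar amounts. The log2 ratio of THBS2 to THBS3 was 3.278 to 4.431 in NP (median 3.654) and 0.967 to 3.555 in P cows (median 2.669), with 4 P cows below every NP cow. The log2 ratio of THBS3 to CD47 was -2.691 to -1.52 in NP (median -1.913) and -1.81 to 0.163 in P cows (median -1.106), with 4 P cows above every NP cow. Since THBS2 and CD47 were called lower and THBS3 was not, these ratios restate those calls, and they were not tested. The log2 ratio of THBS1 to CD36, the ligand and its receptor, spread from 0.248 to 2.849 in NP and from -0.292 to 4.209 in P cows, wider than either group difference.

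The cows were ordered differently by each member. For THBS1 the order from the top was NP cow 42, P cow 01 and NP cow 22, whereas for THBS2 it was NP cows 22, 31 and 30 and for CD47 NP cows 22, 32 and 05. THBS3 ran against CD36 and CD47, an observation made after the values were seen. P cows 29 and 01 had the highest THBS3 of the 12 cows and ranked 11 and 12 for CD36, whereas NP cow 32 had the lowest THBS3 and the highest CD36. Over the 12 cows Pearson's r between THBS3 and CD36 was -0.742, and -0.719 after the group means were removed. Between THBS3 and CD47 it was -0.617, and -0.724 with group means removed. For THBS2 and CD47 r was 0.766, and 0.511 with the group means removed. These values are descriptions of 12 libraries, without a test.

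The genes whose pattern over the 12 cows was most like that of each member were taken from 7110 tested genes with a mean of at least 100 normalized counts. For THBS1 these were COL12A1, a collagen of dense connective tissue (r = 0.914), the WNT receptor gene FZD1 (r = 0.886) and AKAP2, an anchor of protein kinase A (r = 0.871). They kept this likeness with group means removed (r = 0.919, 0.906 and 0.875). CYR61 and CTGF, matricellular genes of the CCN family that also carry a thrombospondin type I repeat, followed THBS1 as well (r = 0.807 and 0.824), a pair singled out after the values were seen. CYR61 reached 3497.2 normalized counts in NP cow 42 and 4443.32 in P cow 01, against 407.45 to 1526.63 in the other 10 cows. CTGF reached 3177.11 in NP cow 42, against 342.13 to 1769.98 in the other NP cows. The 2 cows that were highest in THBS1 were thus also the 2 highest in CYR61.

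For THBS2 the most similar genes were IDH3A, a subunit of a mitochondrial isocitrate dehydrogenase (r = 0.932), STX12, a syntaxin of endosomes (r = 0.919), and the mitochondrial ribosomal protein gene MRPS30 (r = 0.909). None of these 3 was a DEG, since their log2 fold changes of -0.51, -0.55 and -0.39 missed the fold minimum. MRPS30 also missed the threshold on p (adjusted p = 0.0557 by limma). For CD47 they were the transporter-like gene MFSD14A (r = 0.978), the proteasome subunit gene PSMB5 (r = 0.964) and RDH11, a retinol dehydrogenase (r = 0.963). MFSD14A fell with CD47 (log2 fold change -0.69, adjusted p = 0.00998 by limma), and RDH11 fell further (-2.72, adjusted p = 0.000847 by limma). Without P cows 01, 18 and 28 RDH11 was still called and MFSD14A was not. For THBS3 they were WSB1 (r = 0.9), the ETS repressor gene ERF (r = 0.88) and DTX4 (r = 0.855). For CD36 they were the ribonuclease gene RNASE4 (r = 0.855), BLMH (r = 0.794) and LONP1 (r = 0.79). RNASE4 reached 16841.21 normalized counts in NP cow 32, the cow that was also highest in CD36, and lay at 954.14 to 5730.45 in the other 11 cows.

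**Figure D3:**
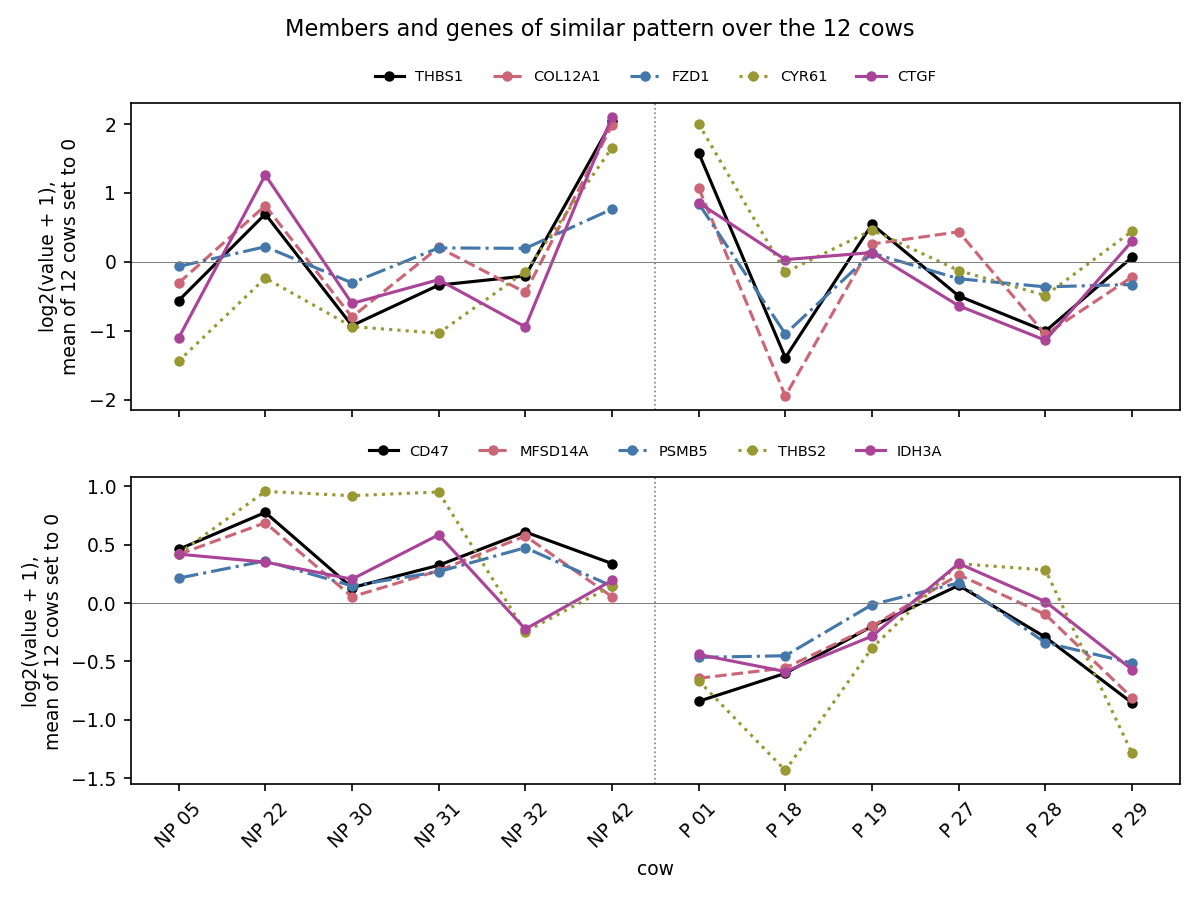
Log2(value + 1) of each gene in each cow, with its mean over the 12 cows set to 0, for THBS1 with COL12A1, FZD1, CYR61 and CTGF (top) and for CD47 with MFSD14A and PSMB5 and THBS2 with IDH3A (bottom). NP cow 42 and P cow 01 stand out at the top for THBS1 and CYR61, and CD47 and MFSD14A rise and fall together over the cows (r = 0.978). Lines only join the points of 1 gene, and cows have no order.

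The neighbours of the members on the chromosome, by RefSeq gene order in a Bos indicus assembly, did not all follow them. SMOC2 (log2 fold change 0.06, adjusted p = 0.81 by limma) and WDR27 (0.78, adjusted p = 0.197), beside THBS2, did not pass. BBX (0.39, adjusted p = 0.0663) and IFT57 (-0.11, adjusted p = 0.692), beside CD47, did not pass either. BBX was nevertheless higher in every P cow (364.85 to 716.26) than in any NP cow (285.67 to 361.57). Groups without overlap, in either direction, were seen in 13.6% of all tested genes. Beside THBS3, MTX1 (-0.32, adjusted p = 0.126 by limma) did not pass, and MUC1, MTX3 and FSIP1, beside THBS3, THBS4 and THBS1, were below the filter. SERINC5, beside THBS4, fell from 37.13 to 9.422 normalized counts (log2 fold change -2.02, adjusted p = 0.0297). RASGRP1, beside THBS1, fell from 246.7 to 38.87 normalized counts (log2 fold change -2.50, adjusted p = 0.00166), whereas THBS1 did not pass, and the call of RASGRP1 held without P cows 01, 18 and 28. CD36 has no entry in that gene list, and coordinates are not given because that assembly is not ARS-UCD1.2, to which the reads were mapped.

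Around the members, genes of the thrombospondin routes were read from 7 lists chosen by function, of which the counts stand beside 14.8% lower and 12% higher over all tested genes and a median log2 fold change of -0.01. Of 11 tested genes listed as relatives of the thrombospondins, a selection without the ADAMTS genes, 2 fell and 0 rose (median -0.02). These were the semaphorins SEMA5A (from 60.75 to 16.29 normalized counts, log2 fold change -1.77, adjusted p = 0.00136) and SEMA5B (from 37.16 to 20.38), which guide axons and carry type I repeats. In P cows SEMA5A had 10.46 to 21.17 and SEMA5B 10.43 to 26.06 normalized counts, so their fold changes rest on few reads. CYR61 (0.71, adjusted p = 0.249), CTGF (-0.15, adjusted p = 0.831), ADGRB2 (0.99, adjusted p = 0.0558) and THSD1 (-0.58, adjusted p = 0.103) did not pass. ADGRB2 was called without NP cow 42 (1.18) or P cow 27 (1.18), and THSD1 without NP cow 32 (-0.79).

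Of 17 other receptors and partners 6 fell and 1 rose (median -0.30). ITGAV, the integrin chain that binds the RGD motif of thrombospondins, fell from 197.9 ± 150.6 to 44.87 ± 21.39 (log2 fold change -2.08, adjusted p = 0.00535). ITGA6 fell from 1001 to 636.1, LRP1, the endocytic receptor that clears thrombospondins, from 1427 to 880.4, and VLDLR from 108.3 to 60.29. QPCTL, the enzyme that in human cells modifies CD47 so that SIRPA can bind it, fell from 409.1 to 209.7 (log2 fold change -1.10, adjusted p = 0.0128). JAG1, a NOTCH ligand, rose from 632.2 to 1033. Without NP cow 22 the log2 fold change of ITGA6 was -0.56, under the fold minimum, and without P cow 28 it was -0.57. The 1 gene that rose was no longer called without any 1 of 8 cows (NP cows 05, 22, 30, 31 and 32, P cows 18, 28 and 29), whereas 2 genes were called higher without NP cow 42, P cow 19 or P cow 27. Without P cows 01, 18 and 28 the list had 2 genes lower and 0 higher, namely ITGAV and the syndecan gene SDC1, and the other 5 calls were lost (ITGA6 -0.52, LRP1 -0.52 and VLDLR -0.67 among them). The list had 4 genes lower and 0 higher with 1 surrogate variable, and 0 lower and 0 higher with library depth in the model. SIRPA was not analysed here.

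Of 13 genes of the CD36 route 4 fell and 0 rose (median -0.17). Among them were MAPK14, the p38 kinase (from 522.7 ± 69.16 to 295.8 ± 53.69, log2 fold change -0.83, adjusted p = 0.00114) and the SRC family kinases YES1 (-0.77) and SRC (-0.96). FYN, the kinase best known for acting below CD36 in endothelial cells, did not pass (0.32, adjusted p = 0.0805). Without the 3 P cows 3 fell, and SRC was no longer called although its log2 fold change was -0.84 (adjusted p = 0.072). The list had 2 genes lower without NP cow 05, NP cow 22 or P cow 18, 2 with 1 surrogate variable and 1 with library depth in the model. Without P cow 28 1 gene was called higher.

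Of 11 genes of the CD47 and nitric oxide route 3 fell and 1 rose (median 0.14). GNAI1, an inhibitory G protein subunit, fell from 121.7 to 53.44, PDE5A, which degrades cyclic GMP, from 88.44 to 43.43, and BNIP3, a cell death gene whose protein binds CD47, from 197.2 to 96.56. PTPN6, the phosphatase that SIRPA recruits, rose from 201 ± 40.09 to 367.1 ± 95.05 normalized counts (adjusted p = 0.00442, log2 fold change 0.85). NOS3 (0.16), KDR (0.14), GUCY1A1 (0.20) and GUCY1B1 (0.34) did not pass. Without the 3 P cows 2 fell and 0 rose, and PDE5A (-0.65, adjusted p = 0.092) and PTPN6 (0.67, adjusted p = 0.0538) were no longer called. With library depth in the model 0 fell and 0 rose.

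Of 13 genes linked to the activation of TGFB by THBS1, 6 fell and 0 rose (median -0.62). The receptors TGFBR3 (-2.04), TGFBR1 (-1.54) and TGFBR2 (-1.14), the mediators SMAD3 (-1.61) and SMAD2 (-0.62), and LRRC32, which holds latent TGFB1 on the cell surface (-0.81), were lower. Levels of TGFBR1 (means of 17.08 in NP and 4.528 in P cows) and SMAD3 (30.73 and 10.59) were low, so their fold changes rest on few reads. The list had 5 genes lower with a filter of at least 10 in at least 6 cows, and 4 with thinned libraries. TGFB1 itself had a log2 fold change of -0.52, under the fold minimum. Without the 3 P cows 2 fell, TGFBR3 and SMAD3, and the other 4 genes were no longer called, SMAD2 with a log2 fold change of -0.60 (adjusted p = 0.0564) and TGFBR2 with -0.68 (adjusted p = 0.0575). The list had 3 genes lower without NP cow 22, 3 with 1 surrogate variable and 1 with library depth in the model. SMAD2 was at -0.53 without NP cow 22 and at -0.57 without P cow 29, under the fold minimum. TGFBR1, TGFBR2, SMAD2 and SMAD3 were also selected by the study from these samples, so their direction is not independent evidence.

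Of 10 proteases and inhibitors 4 fell and 0 rose (median -0.68). TIMP3 fell from 736.4 ± 265.8 to 137.4 ± 63.46 (log2 fold change -2.53, adjusted p = 0.000806), ADAM17, a sheddase, from 166.6 to 22.71, MMP14, a membrane-bound collagenase, from 2239 to 999.6, and PLAT, the tissue plasminogen activator, from 1877 to 1067. ADAMTS1, which cleaves THBS1 and THBS2, did not pass (-0.28, adjusted p = 0.484), and MMP2, which THBS2 binds and helps to clear, did not pass either (-0.50, adjusted p = 0.0996). Without the 3 P cows 3 fell, and with library depth in the model 1 fell. ADAM17 had 0 to 44.53 normalized counts in P cows, so the size of its fall rests on few reads. TIMP3 and ADAM17 were picked by the study together with THBS2. Of 10 growth factors and receptors bound or opposed by thrombospondins 1 rose, PDGFB (from 468.3 to 742.5), and 1 fell, its receptor PDGFRB (from 1203 to 781.8), with a median of 0.08. VEGFA (-0.29, adjusted p = 0.296) did not pass. Without the 3 P cows neither PDGFB (0.46, adjusted p = 0.169) nor PDGFRB (-0.53, adjusted p = 0.066) was called. Neither gene was called with 1 surrogate variable or with library depth in the model. PDGFB was also not called without any 1 of NP cow 22 and P cows 18, 28 and 29 (0.54 to 0.56), nor PDGFRB without any 1 of NP cow 22 and P cows 27 and 28 (-0.57 to -0.54).

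**Figure D4:**
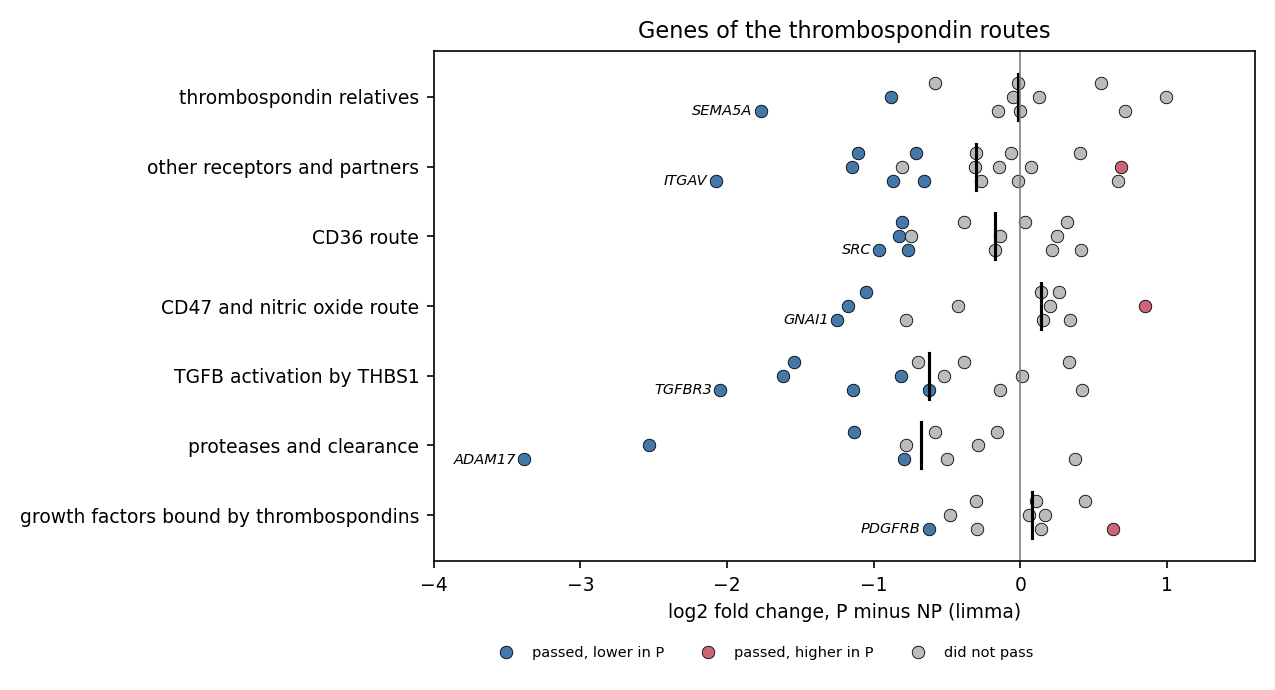
Log2 fold change (P minus NP, limma) of each tested gene of the 7 lists, with the gene of lowest value in each list named. Points are coloured by whether they passed the test, and black bars are list medians, which ran from -0.68 for proteases and clearance to 0.14 for the CD47 and nitric oxide route.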

How the data were processed

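Poly-A RNA of day 18 CL was sequenced from 6 P and 6 NP cows, 1 library per cow, as single-end reads. The authors trimmed reads with cutadapt, aligned them to ARS-UCD1.2 by STAR (the submitters' processing notes give version 2.4.2a) and used htseq-count for counts per gene of the Ensembl annotation. The deposited signal values are these counts divided by DESeq2 size factors (normalized counts). Size factors hold the middle of all genes level, so each value is relative to the other genes of its library. Fold change and p columns of the authors were not used. The strand setting of the counting is not given in the sources used here. No reads were separated by transcript, so that isoforms are not told apart.

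P and NP were compared on log2(value + 1) by limma 3.58.1 in R 4.3.3, with the variance trended on the mean and no covariate. For symbols on several rows (46 rows repeat one), the symbol was given to the most abundant row. The other rows stayed in the data under their Ensembl identifiers. Exact permutation tests ran over all 924 regroupings of 6 and 6 cows, two-sided and unadjusted. Since values are whole multiples of a step in each library (at least 99.9868% of them within 0.0051), reads could be recovered for edgeR 4.0.16 and DESeq2 1.42.0, run as alternatives beside limma-voom, 1 surrogate variable (sva 3.50.0), other filters and pseudocounts, thinning, the library total as a covariate and leaving out cows. The fit was tested on simulated data. The members and lists were chosen with earlier results of these data known. Named were all members, the 4 genes with the lowest p in each list, and the 3 genes most correlated with each tested member. JAG1, QPCTL, SDC1, LRRC32, TGFBR1, RASGRP1 and the list genes given as not passing outside that rule were named after their values were seen. Genes without a row, such as SIRPA, ADGRB3, THSD7B and TIMP1, were not analysed here. The result of 1 list gene is not reported here.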

Additional observations from a re-analysis of the deposited data

Results flagged for a closer look

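The check covered the tested members and the 4 genes with the lowest p in each list, and no other gene named above. In each, the highest and the lowest cow of a group were compared with the other 5 by Dixon's criterion. The criterion was applied to normalized counts and marked 7 of 66 groups of 6 cows. Chance gives about 1 in 20 for normally distributed values, a rate that need not hold for normalized counts, and 5 of the 7 share NP cow 22. On the log2 scale 4 of the 7 were still marked, and THBS1 in NP cow 42, ITGAV and SMAD2 in NP cow 22 were not. THBS1 in NP cow 42 was 3264.93 normalized counts, against 417.57 to 1286.11 in the other NP cows, and without this cow the log2 fold change of THBS1 was 0.15 instead of -0.23. NP cow 22 stood above the other NP cows in 5 genes. Its values were 1397.72 for ITGA6 (others 888.85 to 947.75), 490.85 for ITGAV (others 75.4 to 195.95), 657 for MAPK14 (others 468.05 to 526.41), 490.22 for YES1 (others 310.8 to 368.57) and 388.11 for SMAD2 (others 243.41 to 291.54). Without NP cow 22 the log2 fold changes were -0.56 for ITGA6 and -0.53 for SMAD2, under the fold minimum, and -1.76 for ITGAV, -0.76 for MAPK14 and -0.68 for YES1, still called. The same cow was also the highest of the 12 in THBS2 and CD47. MAPK14 was 400.84 in P cow 19, against 256.18 to 302.77 in the other P cows. No cause was tested.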

How the results depend on the processing

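Over all alternatives 118 values of the members kept their direction and their side of the threshold, 3 lost a call and 4 changed sign. Part of the 118 was close to fixed in advance. The fit without a fold minimum is the main fit, other filters left each member's log2 fold change unchanged, and other pseudocounts moved it little. All 4 changes of sign were in THBS1, whose log2 fold change was 0.29 in a model with 1 surrogate variable (adjusted p = 0.624), 0.0945 in one with depth (log2 of the library total) as a covariate (adjusted p = 0.945), 0.15 without NP cow 42 and 0.02 without P cow 18. With 1 cow left out at a time the log2 fold change ran from -0.57 to 0.15 for THBS1, from -1.22 to -0.87 for THBS2, from 0.04 to 0.30 for THBS3, from -0.66 to -0.26 for CD36 and from -1.0 to -0.80 for CD47, and the number of DEGs from 2521 to 3561. THBS2 was not called in the model with depth (-1.0, adjusted p = 0.142) or without P cows 01, 18 and 28 (-0.97, adjusted p = 0.079), and CD47 was not called with depth in the model (-0.79, adjusted p = 0.0552). The number of DEGs was 510 with depth in the model and 1408 without these 3 cows, against 3197. The 3 shallowest libraries were all from P cows, while P cows 19 and 29 lay within the depth range of the NP cows, so depth and pregnancy were confounded in part. With all libraries thinned to the lowest total, THBS2 (-1.06, adjusted p = 0.0164) and CD47 (-0.82, adjusted p = 0.0042) were called and the number of DEGs was 2903. With 1 surrogate variable THBS2 (-0.97, adjusted p = 0.0483) and CD47 (-0.87, adjusted p = 0.00715) were called, and DESeq2 called both (adjusted p = 0.00761 and 0.000105). Among the named list genes 632 values were the same, 60 lost a call and 8 gained one. No paired analysis was possible because the groups share no cow numbers.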
